A study of Sus scrofa with 12 samples.

Results

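The ovaries of 12 pregnant sows were divided by their level of SPP1, the transcript of osteopontin. The classes were chosen by the array value itself: the SPP1 probe set stood at 9 or more on the log2 scale in 6 sows, called osteopontin-high, and under 9 in the other 6, called osteopontin-low. All 12 sows of the series are in 1 or the other class. Every sow was an Iberian x Meishan F2 animal at day 30 of pregnancy, and each has 1 Affymetrix porcine array for the averaged left and right ovary. By estimated breeding value for prolificacy the labels call 6 sows high and the other 6 low. Of the osteopontin-high sows 2 were of high and 4 of low prolificacy, and of the osteopontin-low sows 4 were of high and 2 of low prolificacy (Fisher's exact test, two-sided, p = 0.567). The classes are therefore measured groups of untreated animals and no sow was assigned to them. Values are log2 expression values of whole ovary, so fewer cells of a type and less RNA per cell cannot be told apart in any result here. Sows are named by prolificacy group and animal number.

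Osteopontin is a secreted, acidic phosphoprotein with an RGD sequence, through which it binds integrins of the alpha v and beta 1 families. It also binds CD44. It is best known from bone, where osteoblasts and osteoclasts make it, and from activated macrophages, epithelia and the pregnant uterus of the pig. Proteases such as thrombin and matrix metalloproteinases cut it into fragments with altered integrin binding. In the ovary the bulk of the tissue at this stage of pregnancy is corpus luteum, the progesterone-secreting gland that forms from the ovulated follicle. Follicles, stroma, vessels and macrophages lie around and within it.

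SPP1 stood at 10.23 in high 1, 10.68 in high 3, 11.25 in low 4, 12.02 in low 3, 12.68 in low 5 and 12.82 in low 1. In the osteopontin-low sows it stood at 6.13 in high 4, 6.28 in low 2, 7.27 in high 2, 7.78 in high 6, 8.08 in high 5 and 8.12 in low 6. The sows nearest the threshold, low 6 below and high 1 above, were 2.11 apart, which was the gap between the classes. Class means were 11.61 ± 1.07 (SD, n = 6) and 7.28 ± 0.88, a log2 difference of 4.34 or 20.2-fold. These values made the classes and are given as a description with no test. The 4 highest values were all of low prolificacy sows, and both classes held sows of both prolificacy groups. SPP1 has 1 probe set with its name on this array, so its identity could not be checked against a second one.

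IBSP encodes bone sialoprotein, a second acidic bone matrix protein, and is separated from SPP1 in the Sscrofa11.1 annotation only by MEPE among protein-coding genes. IBSP did not separate the classes. It stood at 4.51 in high 1, 6.17 in high 3, 7.55 in low 3, 8.71 in low 4, 10.15 in low 1 and 10.42 in low 5. In the osteopontin-low sows it was 3.08 in high 4, 7.43 in high 2, 9.63 in high 6, 9.73 in low 2, 9.98 in low 6 and 10.44 in high 5. The ranges overlapped almost wholly, with means of 7.92 ± 2.31 and 8.38 ± 2.80 and a difference of -0.47 (adjusted p = 0.874). Within high prolificacy sows the difference was -2.31 and within low prolificacy sows -0.65. With prolificacy as a covariate it was -1.48 (unadjusted p = 0.224 in limma). The sign of the difference over all sows turned when high 1 was left out (0.22). DMP1 and DSPP, the other genes of this family with a probe set, were under 4 in every sow.

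**Figure D1:**
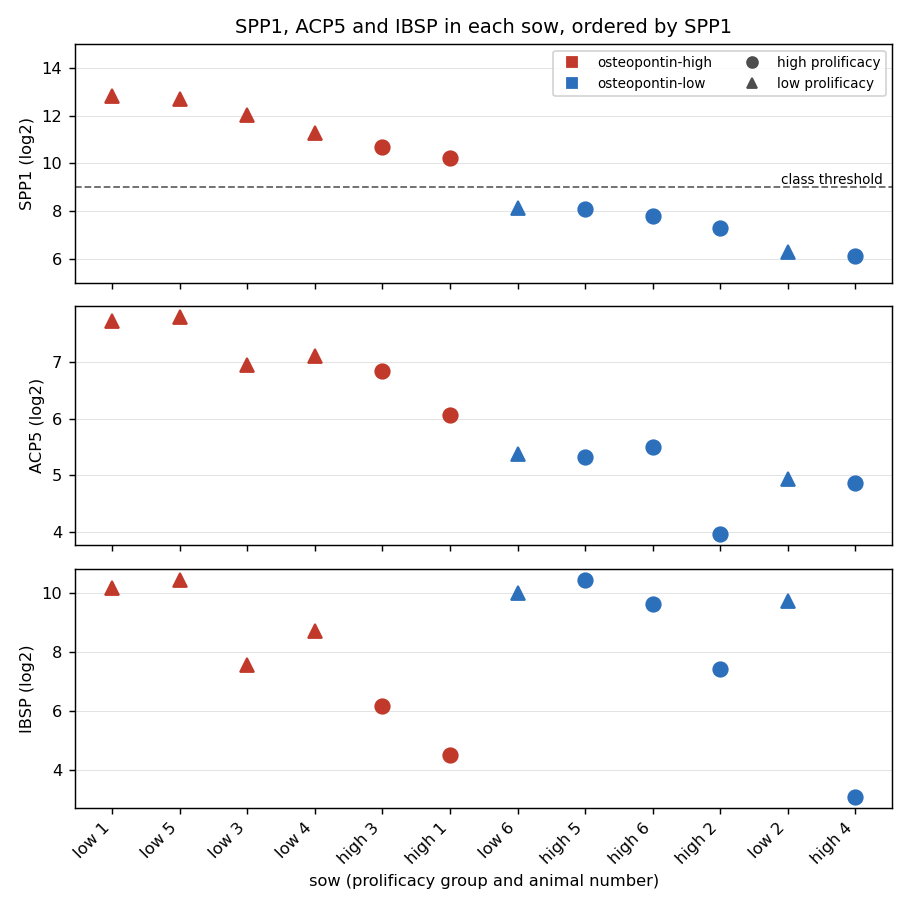
Log2 values of SPP1, ACP5 and IBSP (vertical axes) in each of the 12 sows, ordered from left to right by SPP1. Colour gives the osteopontin class, shape the prolificacy group and the dashed line the threshold of 9. ACP5 is at 6.07 or more in all osteopontin-high sows and at 5.50 or less in all osteopontin-low sows, whereas IBSP is spread over both classes.

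The other probe sets were compared between the classes with limma, with p-values adjusted over all 13389 that stood above 4 in at least 6 sows. At an adjusted p under 0.05 only 1 probe set passed, which is 0.00747% of those tested. At an unadjusted p under 0.05, 1009 probe sets (7.54%) were higher and 1069 (7.98%) lower in osteopontin-high sows. With each array centred on its median these counts were 731 and 1521, so the split between the directions depends on the scaling. Complete separation of the classes was seen for 60 probe sets (0.448%) that were higher and 57 (0.426%) that were lower. The differences that follow are therefore leading values, and apart from that 1 probe set and an interaction given further on, none passed the adjusted test. The 95% interval of a difference, with no adjustment over the probe sets, extended a median of 0.335 to either side. The adjusted test asked for more, as ACP5 at a difference of 2.09 had an adjusted p of 0.0797 in limma. Differences much larger than 0.335 could therefore go undetected with 6 sows a class.

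The probe set that passed, Ssc.4128.1.A1_at, has no gene symbol in the array annotation. It ranged from 4.64 to 5.21 in osteopontin-high sows and from 3.82 to 4.25 in osteopontin-low sows. The classes did not overlap, and the difference was 0.96 (SE 0.12, adjusted p = 0.0226). It is a dim probe set that stood above 4, the level used as the lower limit, in 6 osteopontin-high and 2 osteopontin-low sows, so it entered the test through the class in which it is higher. Its adjusted p ran from 0.0153 to 0.105 when each sow was left out in turn, and stayed under 0.05 in 5 of those 12 fits.

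Several properties of the arrays differed between the classes at an unadjusted p under 0.05. The share of probe sets above 4 averaged 56.1% in osteopontin-high and 55.7% in osteopontin-low sows (exact permutation test, two-sided, p = 0.0173), and the array median 4.92 against 4.86 (exact p = 0.0346). The 3' minus 5' difference of the actin control, a sign of RNA integrity, averaged 2.13 against 2.58 (exact p = 0.0498). Over the 10 measures examined, each of these had an adjusted p of 0.157. The 3' minus 5' difference of the GAPDH control averaged 1.81 against 1.97 (exact permutation p = 0.182). The mean of actin and GAPDH, which is the 3' minus 5' covariate used below, averaged 1.97 against 2.28 (exact permutation p = 0.0628). The arrays least like the others were high 3 of the osteopontin-high and high 2 of the osteopontin-low class, with mean rank correlations of 0.981 and 0.982. CYP19A3, an aromatase gene listed here with the follicle markers, ranged from 6.71 to 12.74 in osteopontin-high and from 3.86 to 12.40 in osteopontin-low sows. The probe set named for CYP19A1, another aromatase gene, was under 4 in every sow. Which aromatase transcript the CYP19A3 probe set measures was not tested. The part of these properties in the gene differences was tested only as far as the covariate fits given below.

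The genes with the smallest p among those higher in osteopontin-high ovaries have mixed roles, and the 5 known from macrophages or osteoclasts are described first. ACP5, the tartrate-resistant acid phosphatase that is the classical enzyme marker of osteoclasts and also dephosphorylates osteopontin, had the smallest p. Its values ran from 6.07 through a median of 7.03 to 7.79 in osteopontin-high sows, and from 3.96 through 5.12 to 5.50 in osteopontin-low sows. The lowest osteopontin-high sow was high 1 and the highest osteopontin-low sow high 6, so the classes did not overlap. The means were 7.08 ± 0.63 and 4.99 ± 0.57, a difference of 2.09 (4.26-fold, adjusted p = 0.0797). Within high prolificacy sows the difference was 1.55 and within low prolificacy sows 2.24. ACP5 passed the threshold in 3 of 31 alternative fits: with SPP1 as a continuous regressor (adjusted p = 0.00203), with array weights (adjusted p = 0.0459) and without high 1 (adjusted p = 0.0412). The regressor holds the same SPP1 values that made the classes, and the smallest p of that fit belonged to a probe set with no gene symbol (adjusted p = 0.000576).

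SMPDL3A, a secreted phosphodiesterase related to acid sphingomyelinase and induced by cholesterol loading in macrophages, followed ACP5. It ran from 8.41 through 9.32 to 9.95 against 7.40 through 7.97 to 8.26. High 3 was the lowest osteopontin-high sow and stood above low 2, the highest osteopontin-low sow. The difference was 1.44 (2.72-fold, adjusted p = 0.109), 1.0 within high and 1.44 within low prolificacy sows. SMPDL3A also passed the threshold in 2 of its 31 fits, with SPP1 as a continuous regressor (adjusted p = 0.0214) and without high 3 (adjusted p = 0.0419).

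LGALS3, galectin-3, a lectin abundant in macrophages, stood between 9.73 and 10.78 with a median of 10.09 in osteopontin-high sows, and between 8.70 and 9.58 with a median of 9.05 in osteopontin-low sows. No osteopontin-low sow reached the lowest osteopontin-high sow, low 4, and the difference was 1.01 (2.01-fold, adjusted p = 0.141). CTSK, cathepsin K, the collagen-degrading protease of osteoclasts, ran from 10.26 through 10.72 to 11.09 against 9.48 through 9.90 to 10.21. It too was separated, by a narrow margin between high 3 and high 2, with a difference of 0.84 (1.79-fold, adjusted p = 0.141). CTSZ, a lysosomal carboxypeptidase of the same family, ran from 7.04 through 7.33 to 7.79 against 6.47 through 6.69 to 6.86, a difference of 0.68 (1.6-fold, adjusted p = 0.141). All 5 of these genes stood higher in the osteopontin-high class within both prolificacy groups. With CYP19A3 as a covariate the differences were 2.06 for ACP5, 1.51 for SMPDL3A, 1.06 for LGALS3, 0.94 for CTSK and 0.73 for CTSZ. With the 3' minus 5' difference as a covariate they were 1.70, 1.27, 1.09, 1.01 and 0.63 in the same order.

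**Figure D2:**
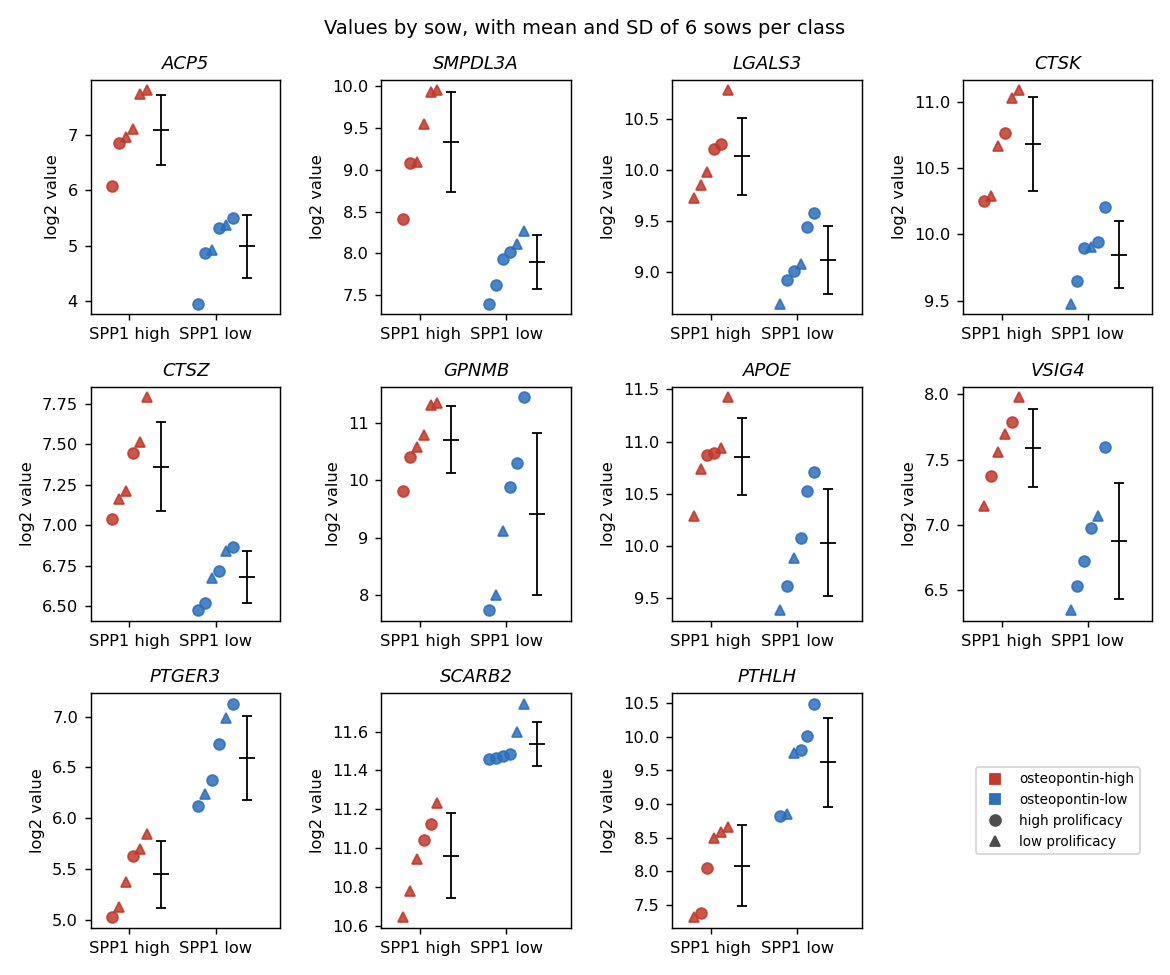
Log2 values of 11 genes by sow (vertical axes, scaled per gene) in the osteopontin-high and osteopontin-low classes, with the mean and SD of 6 sows beside each class. ACP5, SMPDL3A, LGALS3, CTSK and CTSZ are higher and PTGER3, SCARB2 and PTHLH lower in osteopontin-high sows without overlap, whereas GPNMB, APOE and VSIG4 overlap.

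The other leading genes on the higher side have varied roles. MEIS1, a homeodomain transcription factor, stood at 7.85 ± 0.36 against 6.44 ± 0.57 and differed by 1.42 (2.67-fold, adjusted p = 0.109). PDZRN3, a ubiquitin ligase with PDZ domains, differed by 1.06, the sulphotransferase SULT1A3 by 1.12 and GLIPR2, a Golgi-associated protein, by 0.78. SSBP2, a cofactor of LIM-domain transcription complexes, differed by 1.02, 1.62 within high and 0.41 within low prolificacy sows. LDHA, lactate dehydrogenase A of glycolysis, stood at 11.06 ± 0.17 against 10.48 ± 0.21, a difference of 0.58. THUMPD2 differed by 0.51. Of these 7 genes, all but THUMPD2 were separated between the classes.

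On the lower side, PTGER3, the EP3 receptor for prostaglandin E2, led. It ran from 5.02 through 5.50 to 5.84 in osteopontin-high and from 6.12 through 6.55 to 7.13 in osteopontin-low sows. The classes did not overlap, and the difference was -1.15 (2.22-fold, adjusted p = 0.109). FRS2, the docking protein of the fibroblast growth factor receptors, ran from 8.82 to 9.85 against 10.33 to 11.52, also without overlap, a difference of -1.28 (adjusted p = 0.109). PTHLH encodes parathyroid hormone-related protein, which drives bone resorption and calcium transport. It stood between 7.32 and 8.65 against 8.82 and 10.49, a difference of -1.54 (2.91-fold, adjusted p = 0.154). HSD11B2, which inactivates cortisol, stood at 6.49 ± 0.88 against 8.03 ± 0.42 and differed by -1.54 (adjusted p = 0.206), with overlap.

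SCARB2, a lysosomal membrane protein that carries glucocerebrosidase, differed by -0.57 in its brightest probe set and by -0.10 in another, so its probe sets do not give the same picture. The kinesin KIF21A differed by -1.38, RANBP10 by -0.59, the adaptor SH2D3C by -0.50, the deadenylase subunit CNOT2 by -0.42, ZC3H13 by -0.76, the chloride exchanger CLCN3 by -0.59 and DPH3 by -0.54. CLCN3 differed by only -0.14 and -0.23 in its other probe sets and DPH3 by -0.39. Over the 24 leading genes adjusted p ran from 0.0797 to 0.206, and 16 were separated between the classes. Each had the same sign within high and within low prolificacy sows. They also kept their sign in every alternative fit that tested them, 31 fits for 20 genes and 30 for the other 4, which are too dim for the filter at 6. The genes were picked for small p in these sows, so that agreement describes them and is not independent evidence.

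The receptors of osteopontin lay on both sides. Of 6 receptor subunits tested, 3 were higher and 3 lower, with a median difference of -0.01 beside a median of -0.01 over the 5078 genes tested. Of those 5078 genes 47.8% were higher in osteopontin-high sows, which is the share to set beside each list. The alpha v subunit ITGAV stood at 9.94 ± 0.23 against 10.03 ± 0.39, the beta 1 subunit ITGB1 at 12.26 ± 0.09 against 12.19 ± 0.18 and the beta 3 subunit ITGB3 at 5.84 ± 0.56 against 5.71 ± 0.42. The fibronectin receptor subunit ITGA5 differed by -0.43 (adjusted p = 0.332), -0.89 within high and 0.19 within low prolificacy sows. ITGA8, which pairs with beta 1 to bind osteopontin, stood at 6.38 ± 0.58 against 5.35 ± 0.95, a difference of 1.03 (unadjusted p = 0.025, adjusted p = 0.269 in limma). It differed by 0.58 and 0.91 in its other probe sets, and by 0.57 in the brightest with CYP19A3 as a covariate. CD44 has no probe set named for it and was not analysed here.

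Of 3 proteases that cleave osteopontin, MMP2, gelatinase A, ran from 9.10 through 10.73 to 11.0 against 8.41 through 9.19 to 9.90, a difference of 1.22 (2.32-fold, adjusted p = 0.206). The urokinase PLAU differed by 0.13 and cathepsin D, CTSD, by -0.19. MMP3, MMP7 and MMP9 were under 4 in every sow. Of 6 transcription factors reported to act on the SPP1 gene, 5 were higher, with a median of 0.13. In high prolificacy sows alone 5 were higher (median 0.67), and in low prolificacy sows alone 3 (median 0.01). JUN, a subunit of AP-1, differed by 0.98 (unadjusted p = 0.041, adjusted p = 0.308), 2.08 within high and 0.34 within low prolificacy sows. The myeloid factor SPI1 differed by 0.36, PPARG by 0.19, FOS by 0.07 and MITF by 0.04. FOS differed by 0.80 within high and -0.56 within low prolificacy sows, and PPARG by 0.96 and -0.13. RXRA, TFEB, NFATC1 and SOX9 were under 4 in every sow. Of 6 mineralisation and bone cell genes tested, 3 were higher and 3 lower, and BGLAP, PHEX, SP7 and BMP4 were under 4 in every sow. Collagen I alpha 2, COL1A2, differed by 0.96 in its brightest probe set and by -0.11 in its other.

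**Figure D3:**
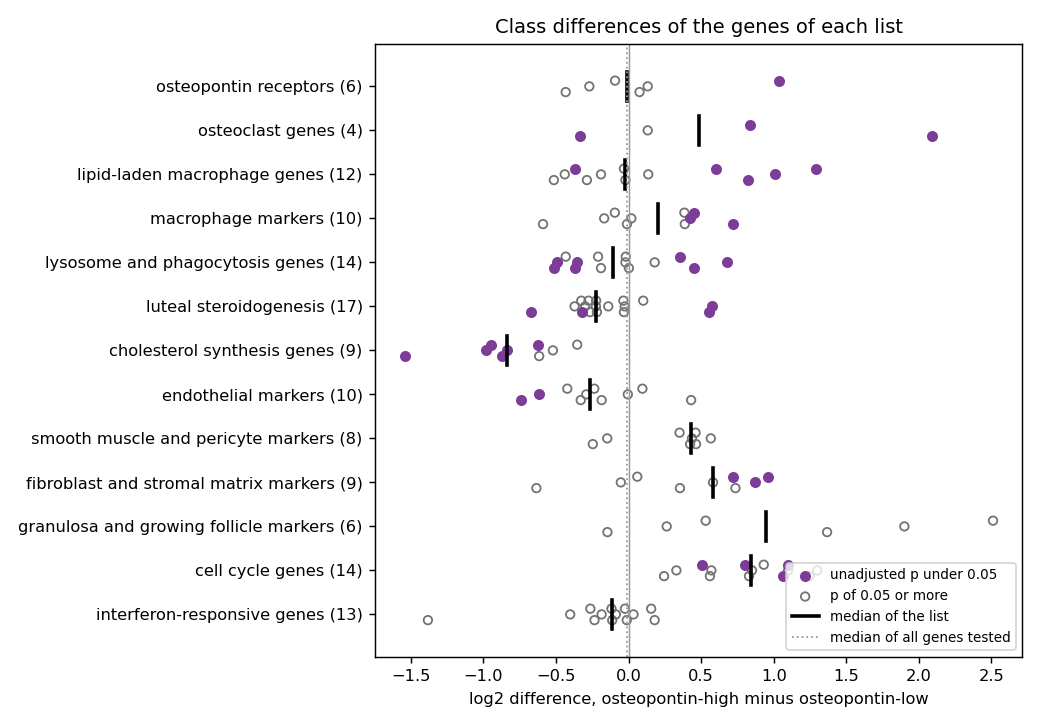
Log2 difference between osteopontin-high and osteopontin-low sows (horizontal axis) for each tested gene of 13 lists, with the number of genes in brackets. Filled points have an unadjusted p under 0.05, bars mark list medians and the dotted line the median of all genes. All 14 cell cycle genes lie above and all 9 cholesterol synthesis genes below 0, whereas macrophage and lysosome genes lie on both sides.

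Few osteoclast genes besides ACP5 and CTSK could be tested. Of 4 osteoclast genes tested, 3 were higher and 1 lower, with a median of 0.48. Besides ACP5 and CTSK, ITGB3 differed by 0.13 and TCIRG1, a subunit of the vacuolar proton pump, by -0.34. MMP9, the pump subunit ATP6V0D2 and the calcitonin receptor CALCR were under 4 in every sow.

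Genes of lipid-laden macrophages were divided: 5 of 12 tested were higher and 7 lower, with a median of -0.03 (-0.31 in high and 0.30 in low prolificacy sows). LGALS3, APOE, CSTB and GPNMB were higher at an unadjusted p under 0.05, and LIPA, lysosomal acid lipase, was lower at -0.37. APOE, the apolipoprotein of macrophage cholesterol efflux, ran from 10.28 through 10.88 to 11.42 against 9.38 through 9.98 to 10.71, a difference of 0.82 (adjusted p = 0.206). The cysteine protease inhibitor CSTB differed by 0.60. GPNMB, a transmembrane glycoprotein of osteoclasts and lipid-loaded macrophages, had 3 probe sets with differences of 1.29, 0.83 and 1.07. Its brightest was high in high 5 of the osteopontin-low class at 11.44, above every osteopontin-high sow. The GPNMB difference was 0.27 within high and 2.44 within low prolificacy sows.

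General macrophage markers had a median difference of 0.20. Of 10 tested, 6 were higher and 4 lower, and 3 were higher at an unadjusted p under 0.05. In high prolificacy sows alone 4 were higher, with a median of -0.13, and in low prolificacy sows alone all 10 were higher, with a median of 0.55. With CYP19A3 as a covariate 9 were higher (median 0.38), and without high 3 and high 2 also 9 (median 0.33), with 5 at an unadjusted p under 0.05 in each. Over all 13389 probe sets, 418 and 653 were higher at that p in those 2 fits. Other fits gave fewer markers at that p. With the 3' minus 5' difference, albumin or prolificacy as a covariate 8, 5 and 6 were higher, with 1 at that p in each. With each array centred on its median 5 were higher, 1 of them at that p, and with quantile normalization 5, with 2. The mean level of the 10 markers ran from 7.02 to 7.62 in osteopontin-high and from 6.58 to 7.72 in osteopontin-low sows. VSIG4, a complement receptor of resident macrophages, differed by 0.72 (adjusted p = 0.206), the lysosomal protein LAPTM5 by 0.43 and the Fc receptor gamma chain FCER1G by 0.45. CD163, the haemoglobin scavenger receptor, stood at 8.12 ± 0.66 against 8.71 ± 1.02. Its second, dimmer probe set differed by -1.72 (unadjusted p = 0.00973, adjusted p = 0.228 in limma). The second VSIG4 probe set differed by 0.57 (unadjusted p = 0.0298 in limma). The counts of markers hold only the brightest probe set of each gene. C1QA and C1QC of complement differed by -0.01 and -0.09. SIGLEC1, ITGAM, FCGR1A and MARCO were under 4 in every sow. The part of macrophage content in the ACP5 and LGALS3 differences was not tested.

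Lysosomal genes lay on both sides. Of 14 tested, 5 were higher and 9 lower, with a median of -0.11 (-0.39 in high and 0.0025 in low prolificacy sows). CTSZ, CTSS at 0.45 and the brightest LAMP2 probe set at 0.36 were higher at an unadjusted p under 0.05, though another LAMP2 probe set differed by -0.42. CTSC at -0.51, NEU1 at -0.50, LIPA at -0.37 and HEXA at -0.36 were lower. Cathepsins B and H differed by -0.02 and -0.21. Of 11 markers of T cells and natural killer cells on the array, 10 were under 4 in every sow, and JCHAIN of plasma cells differed by 0.13.

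Of 17 luteal genes 14 were lower and 3 higher in osteopontin-high ovaries, with a median of -0.22, and 2 in each direction had an unadjusted p under 0.05. The list holds progesterone synthesis genes together with others such as RLN2, PTGFR, LHCGR and HSD11B1. The median was -0.31 in high and -0.05 in low prolificacy sows, and -0.14 with CYP19A3 as a covariate. NPC1, which moves cholesterol out of lysosomes, stood at 12.16 ± 0.45 against 12.83 ± 0.33 and differed by -0.67 (adjusted p = 0.213), and FDX1, ferredoxin, differed by -0.32. STAR, CYP11A1 and HSD3B1, the core of the pathway, differed by -0.23, -0.33 and -0.30, with adjusted p of 0.341, 0.362 and 0.382. Those differences lay mainly in high prolificacy sows, where they were -0.48, -0.84 and -0.77, against -0.06, -0.05 and 0.14 in low prolificacy sows. Relaxin, RLN2, differed by -0.04. TSPO, a mitochondrial cholesterol-binding protein, and HSD11B1, which regenerates cortisol, were higher by 0.55 and 0.57. HSD11B1 and HSD11B2, enzymes of opposite direction on cortisol, thus differed with opposite signs. Of 6 genes of luteal regression tested, TIMP1 was the only one at an unadjusted p under 0.05, at -0.74, and PTGFR differed by -0.22.

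All 9 cholesterol synthesis genes tested were lower in osteopontin-high ovaries, 6 of them at an unadjusted p under 0.05, with a median of -0.84. Over all genes tested 8.57% were lower and 7.90% higher at that p. SQLE, squalene epoxidase, ran from 8.69 through 10.33 to 10.67 against 10.45 through 11.06 to 11.61, a difference of -0.98 (1.98-fold, adjusted p = 0.239). HMGCS1, which makes the HMG-CoA of the pathway, differed by -0.95 (adjusted p = 0.247). INSIG1, the sterol-responsive brake on the pathway, stood at 10.53 ± 1.03 against 12.08 ± 1.08 and differed by -1.54 (adjusted p = 0.247). FDFT1, NSDHL and SC5D differed by -0.84, -0.87 and -0.62. The classes overlapped for each, and high 3 was the lowest osteopontin-high sow for SQLE, INSIG1 and HMGCS1. The median of the 9 genes was -1.53 in high and -0.23 in low prolificacy sows. With CYP19A3 as a covariate it was -0.47, and 0 of the 9 then had an unadjusted p under 0.05. Without high 3 and high 2 it was -0.49.

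All 14 cell cycle genes tested were higher, 4 of them at an unadjusted p under 0.05, with a median of 0.84. MCM4, PLK1, TYMS and CCNA2 have probe sets that did not pass the filter. PCNA, the sliding clamp of DNA replication, differed by 0.51 (adjusted p = 0.262), the helicase subunit MCM2 by 1.10, and the mitotic kinases AURKA and AURKB by 0.80 and 1.06. Their values overlapped between classes, and AURKB, at 4.86 ± 0.95 against 3.80 ± 0.74, lay near the lower limit of 4. The median was 1.84 in high and 0.28 in low prolificacy sows, and 0.30 with CYP19A3 as a covariate, where 0 of 14 had an unadjusted p under 0.05. With the latter covariate all 14 were still higher. With the 3' minus 5' difference as a covariate the median was 0.46, and without high 3 and high 2 it was 0.41 with 13 of 14 higher. In either, 0 had an unadjusted p under 0.05. With albumin as a covariate the median was 0.80, and 0 had an unadjusted p under 0.05.

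Markers of growing follicles were high in some sows of each class. CYP19A3 stood at 12.74 in high 1, 11.59 in high 3, 10.17 in low 4, 9.98 in low 1, 7.44 in low 3 and 6.71 in low 5. In the osteopontin-low class it was 12.40 in low 6, 7.98 in low 2, 7.76 in high 6, 7.32 in high 5, 4.25 in high 4 and 3.86 in high 2. The classes overlapped, and the difference of 2.51 (adjusted p = 0.383) was 6.37 within high and -1.61 within low prolificacy sows. Its other probe sets differed by 2.22 and -0.03. INHA, the inhibin alpha subunit, differed by 4.28 and -1.42 in those groups, and HSD17B1, which makes oestradiol, by 4.15 and -0.59. With CYP19A3 level as a covariate over all probe sets, 846 (6.32%) had an unadjusted p under 0.05. The medians of the cell cycle and cholesterol synthesis genes were smaller in size with CYP19A3 as a covariate. ACP5, SMPDL3A, LGALS3, CTSK and CTSZ differed by nearly the same amounts with and without it. Among the other leading genes, SSBP2 moved from 1.02 to 0.77, PTHLH from -1.54 to -1.13 and CLCN3 from -0.59 to -0.44. LDHA stayed at 0.58, and SCARB2 moved from -0.57 to -0.59. The cause of these shifts was not tested.

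**Figure D4:**
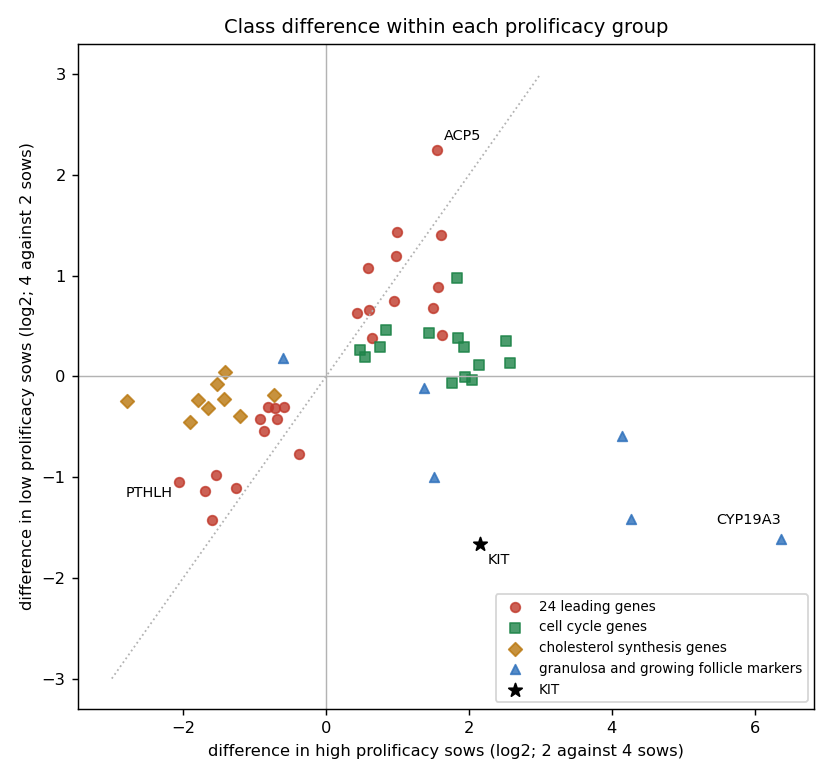
Log2 difference between osteopontin-high and osteopontin-low sows within high prolificacy sows (horizontal axis, 2 against 4 sows) and within low prolificacy sows (vertical axis, 4 against 2 sows), with a dotted line of equality. The 24 leading genes have the same sign on both axes, cell cycle and cholesterol synthesis genes lie mostly along the horizontal axis, and KIT and the follicle markers CYP19A3 and INHA have opposite signs.

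Of the stromal lists, fibroblast and matrix genes were higher in 7 of 9 cases, with a median of 0.58 (0.23 with CYP19A3 as a covariate). COL6A3 differed by 0.87, fibronectin FN1 by 0.72 and decorin DCN by 0.58, and FN1 differed by -0.04 within high prolificacy sows. Smooth muscle markers were higher in 6 of 8 cases with a median of 0.43, and 0 had an unadjusted p under 0.05. That median was 0.16 with CYP19A3 and 0.20 with the 3' minus 5' difference as a covariate, and 0.23 without high 3 and high 2. ACTA2 and TAGLN, actin and transgelin of contractile cells, differed by 0.46 and 0.57. Endothelial markers were lower in 8 of 10 cases, with a median of -0.26. In high prolificacy sows the median was -0.44, and in low prolificacy sows it was 0.0007 with 5 of 10 higher. Endoglin ENG stood at 7.55 ± 0.31 against 8.17 ± 0.40 and differed by -0.62 (adjusted p = 0.217), and the VEGF receptor FLT1 differed by -0.74 and by -1.01 in its second probe set. VEGFA differed by -0.61, -1.41 within high and -0.09 within low prolificacy sows, and by 0.07 in another probe set.

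WT1, a transcription factor of ovarian surface and granulosa cells, was separated between the classes at 5.96 to 6.39 against 5.50 to 5.94, a difference of 0.46 (adjusted p = 0.206). ZP4, a zona pellucida protein of the oocyte, stood at 4.88 ± 0.70 against 3.59 ± 0.32 and differed by 1.29 (adjusted p = 0.181) at the dim end of the scale. GDF9, the growth factor of the oocyte, differed by 0.50. It was dim too, at 4.58 ± 0.50 against 4.08 ± 0.24, and stood above 4 in 6 osteopontin-high and 3 osteopontin-low sows. Of 6 oocyte markers on the array only these 2 were tested. BMP15, ZP2 and DDX4 were under 4 in every sow, and ZP3 did not pass the filter. ZP4 stood above 4 in 5 osteopontin-high sows and in 1 osteopontin-low sow, so it entered the test mainly through the class in which it is higher. Without low 5, the osteopontin-high sow below 4, ZP4 passed the threshold (adjusted p = 0.0472).

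None of the interferon response and MHC class II genes had an unadjusted p under 0.05. Of 13 interferon-responsive genes 10 were lower, with a median of -0.11 and 0 at an unadjusted p under 0.05, and RSAD2, an antiviral enzyme, differed by 0.03. In low prolificacy sows alone that median was 0.27, and with the 3' minus 5' difference as a covariate 0.17. Of 7 MHC class II genes 6 were lower, with a median of -0.20 (0.11 in low prolificacy sows alone). Heat shock genes were higher in 6 of 12 cases and immediate early genes in 5 of 11. MYC differed by 0.69 and HSP90AB1 by 0.24. Of 10 hypoxia and glycolysis genes 6 were higher, LDHA among them, and PGK1 differed by -0.24.

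ACP5, as uteroferrin, is also a major secretion of the pig uterus in pregnancy, so uterine and placental transcripts were examined for carried-over tissue. OVGP1, UPTI, MUC1, SLC5A1 and LTF were under 4 in every sow, and 6 of 7 placental markers on the array were too. A value under 4 need not mean absence, since the collagen COL3A1 of the stromal list was also under 4 in every sow. FOXJ1, SERPINA14, UTMP, PAX8 and MUC16 have no probe set named for them. Carry-over was not tested beyond these values. STC1, the other uterine gene tested, stood at 9.88 ± 1.06 against 9.92 ± 0.89, and its other probe set differed by 0.40. Albumin, ALB, which is not normally an ovarian product, was above 8 in 4 sows: low 1, low 3 and low 4 of the osteopontin-high and high 5 of the osteopontin-low class. It averaged 6.74 ± 5.14 against 3.65 ± 2.50 (exact permutation test, two-sided, p = 0.277). With albumin as a covariate the differences were 1.96 for ACP5, 1.28 for SMPDL3A and 1.07 for LGALS3.

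The class difference itself differed between the prolificacy groups for 1 probe set at an adjusted p under 0.05. KIT, the receptor for stem cell factor found on oocytes, theca cells and mast cells, stood at 6.89 in high 1 and 7.29 in high 3, and between 4.61 and 5.08 in the 4 osteopontin-low sows of high prolificacy. In low prolificacy sows the order was the opposite: it stood between 4.60 and 4.83 in the 4 osteopontin-high sows and at 5.87 in low 2 and 6.88 in low 6. The class difference was 2.16 in the former and -1.66 in the latter (interaction 3.82, adjusted p = 0.00621 in limma). Without high 3 the adjusted p was 0.0951, and with any other sow left out it stayed under 0.05. KIT is highest in the 3 sows with the highest CYP19A3, high 1, high 3 and low 6, and the part of CYP19A3 in the interaction was not tested. Over all probe sets 1318 had an unadjusted interaction p under 0.05.

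The relation of 6 genes to the level of SPP1 was examined inside each class. In the osteopontin-high class the 2 sows with the least SPP1 are its only high prolificacy sows, so SPP1 level and prolificacy group cannot be told apart there. ACP5 had a Pearson r of 0.92 with SPP1 over the 6 sows (exact permutation p = 0.00972) and a Spearman rho of 0.89 (exact p = 0.0333). IBSP had an r of 0.92 (exact p = 0.0167) and GPNMB of 0.89 (exact p = 0.0222), each with the same rho. After adjustment over the 12 relations examined, 6 genes in each class, the p of each r was 0.0889 and of each rho 0.1. Without the 2 sows farthest from the median of SPP1 the r was 0.81 for ACP5, 0.81 for IBSP and 0.96 for GPNMB. Within the osteopontin-low class the r was 0.42 for ACP5, 0.68 for IBSP and 0.32 for GPNMB, with adjusted p of 0.702, 0.197 and 0.752 by exact permutation. Without the 2 sows farthest from the median it was 0.88, 0.97 and 0.75. SMPDL3A had an r of 0.80 in the osteopontin-high and 0.20 in the osteopontin-low class. LGALS3 and CTSK had an r of -0.15 and -0.09 in the osteopontin-high class, and of 0.51 and 0.22 in the osteopontin-low class. Without the 2 sows farthest from the median, SMPDL3A, LGALS3 and CTSK had 0.83, 0.11 and 0.41 in the osteopontin-high class. In the osteopontin-low class they then had 0.09, -0.71 and -0.59, so the 6 genes did not behave alike. These genes were chosen after their values had been seen.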

How the data were processed

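Gene expression was measured in 12 ovary samples on Affymetrix porcine arrays. The deposited values were read as log2 expression per probe set, a scale taken from the values themselves. GCOS and GCRMA are the tools the authors name in the submitters' processing notes, with versions not given in the sources used here. GCRMA draws dim probe sets toward a floor, which compresses their differences. Of 24123 probe sets 124 controls were left out. Of the rest, 10069 had 1 symbol in the array annotation, 198 several and 13732 none. A gene was read from its brightest probe set, and its other probe sets are given where their sign differs and, for some genes, where their size does. Names of 62 control probe sets were displaced by 21 places and were moved back for the 3' minus 5' differences.

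Sows were divided at an SPP1 value of 9. Probe sets above 4 in at least 6 sows, without SPP1, entered a limma 3.58.1 fit (lmFit, eBayes; R 4.3.3) of class alone, two-sided, with Benjamini-Hochberg adjustment at 0.05. The interaction fit added prolificacy and its product with class. Array and composition measures and correlations used exact permutation tests in Python 3.11.15 with scipy 1.17.1. The steps were tested on simulated data. The number of sows limits the precision. The p-values measure the spread between sows, whose kinship is unknown.

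The classes, the 34 gene lists and the tests were chosen with earlier results of these data known. The genes named are, in each direction, the 12 of smallest p that have 1 symbol, then up to 3 of smallest p from every list, and 22 fixed genes. Other list members, KIT and the genes in which 1 sow stood apart were named after their values were seen. Alternatives were other filters, scalings and moderation, covariates, the animal number as a replicate block, SPP1 as a continuous regressor, each prolificacy group alone and leaving out sows. Leaving out the 4 sows with albumin above 8 or the 2 arrays of lowest rank correlation, and keeping SPP1 in the adjustment, were added after the data were seen.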

Additional observations from a re-analysis of the deposited data

Results flagged for a closer look

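A sow stood apart from the other 5 of its class in 11 of 230 class and gene combinations examined, where chance flags about 1 in 20. THUMPD2 was 6.55 in low 5 against 6.81 to 6.96 in the other osteopontin-high sows, and 6.62 in low 6 against 6.16 to 6.29 in the other osteopontin-low sows. Its classes overlap through these 2 sows. ITGB5, an integrin subunit that binds osteopontin, was 9.64 in low 1 against 8.58 to 8.90. CTSD was 9.85 in high 2 against 10.49 to 10.70. PTGFR was 12.93 in high 3 against 13.44 to 13.68. LYVE1, a lymphatic vessel receptor, was 8.28 in low 3 against 7.59 to 7.84. AURKA was 4.38 in high 4 against 5.07 to 5.39. PGK1 was 11.79 in low 2 against 11.47 to 11.58. The T cell gene CD247, which lay near the limit of 4 throughout, was 4.31 in low 3 and 4.55 in high 4. Albumin, ALB, was 8.67 in high 5 against 2.04 to 3.33 in the other osteopontin-low sows.

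KIT was the gene whose class difference differed between the prolificacy groups, with an interaction of 3.82 on the log2 scale (adjusted p = 0.00621 in limma).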

How the results depend on the processing

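The 24 leading genes kept their sign in each of the 31 alternatives that tested them, 4 not being tested above 6. They were picked for small p in these same sows, so this is not independent evidence. Of 2369 comparisons of 77 named values 2307 kept both sign and side of the threshold. No named gene passed the class comparison in the fit reported, so keeping that side was largely set beforehand and the count does not measure robustness. The number of probe sets past the adjusted threshold, 1 in the fit reported, was 0 with the 3' minus 5' difference, albumin or CYP19A3 as a covariate, with only values above 6 in at least 6 sows, in high or low prolificacy sows alone, without the sows nearest the threshold, without the 2 arrays of lowest rank correlation and without the 4 sows with albumin above 8. It was 2 with no filter, with prolificacy as a covariate and with SPP1 kept in the adjustment, 3 with array weights, and 5 with SPP1 as a continuous regressor. Leaving out single sows gave 0 to 2. In the fits with 0, limma gave between 591 and 2912 probe sets at an unadjusted p under 0.05. The 2078 probe sets at an unadjusted p under 0.05 became 846 with CYP19A3 as a covariate, 1303 with the continuous regressor, 1244 without the 4 albumin sows and 772 in low prolificacy sows alone, which are 4 against 2, and leaving out single sows gave 1483 to 2784. The cause of these shifts was not tested. The interaction called 16 probe sets with no filter, 0 above 6, where KIT is not tested, and 0 to 4 without single sows.

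With the animal number as a replicate block, 0 probe sets passed and 591 had an unadjusted p under 0.05. Deviations of same-numbered sows correlated between -0.455 and 0.168, so the numbers do not pair the sows. IBSP was 2.80, KIT -0.26 and ITGAV 0.18 under that replicate block. Signs turned in other settings too. IBSP was 0.89 with the continuous regressor, 0.54 without the sows nearest the threshold and -1.53 to 0.22 without single sows. KIT was -0.26 with the 3' minus 5' difference, -0.66 with CYP19A3, -0.23 with the continuous regressor, -0.43 without the 2 arrays, -0.29 with array weights, -1.66 in low prolificacy sows and -0.26 to 0.39 without single sows. ITGAV was 0.10 with the 3' minus 5' difference, 0.074 without the 2 arrays, 0.0014 with array weights, 0.044 in low prolificacy sows and -0.18 to 0.035 without single sows. ITGB3 was -0.021 without the albumin sows, -0.036 in high prolificacy sows and -0.018 to 0.25 without single sows. RSAD2 was -0.27 with albumin, -0.020 with median centring, -0.62 in high prolificacy sows, -0.61 without the sows nearest the threshold and -0.52 to 0.54 without single sows. INHA was -0.48 with CYP19A3. In low prolificacy sows INHA was -1.42, CYP19A3 -1.61, CD163 0.019 and HSD3B1 0.14, and in high prolificacy sows FN1 was -0.038. Only 6 sows a class and the compression of dim probe sets limit what could be detected.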
